A study of Mus musculus with 2 samples.

Results

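The channel genes described here are the 8 genes Hcn2, Hcn3, Hcn4, Cacna1d, Cacna1g, Cacna1h, Kcnj3 and Kcnj5, out of 21225 genes measured in right atria of mouse embryos. They were taken by gene symbol as the pore-forming subunits of the pacemaker HCN, calcium and GIRK channels, with no limit on their measured values, and each was represented by 1 value per array. The tissue came from embryos of the CD-1 outbred line at E11.5, a stage at which the forming sinoatrial node belongs to the dissected right atrium. The Shox2-/- group, in which both copies of the homeobox gene Shox2 are disrupted, and the wildtype group, which carries no such allele, were 1 array each, hybridized with RNA pooled from 6 embryos of 2 pregnancies. A pool hides the spread between embryos, and with 1 array per genotype no difference given below has an error or a p-value.

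HCN channels open when the membrane becomes more negative and bind cyclic AMP, and their inward current, called the funny current, slowly depolarizes pacemaker cells between beats. The L-type channel encoded by Cacna1d opens at more negative voltages than the main L-type channel of working heart muscle, and T-type channels open transiently at low voltages, so that both kinds can carry calcium late in this depolarization. GIRK channels are inwardly rectifying potassium channels that G protein beta-gamma subunits open after acetylcholine has bound its muscarinic receptor, which slows the heart beat.

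None of the 8 channel genes stood past the size thresholds used for these arrays, a log2 difference (Shox2-/- minus wildtype) of at least 0.35 or of −0.4 or less. Of all 21225 genes, 1.13% had a difference of at least 0.35 and 1.78% one of −0.4 or less. Higher values on the Shox2-/- array were found for 6 of the 8 genes, against 54.9% of all genes, and the median log2 difference of the 8 was 0.12, against 0.021 over all genes. Hcn3 lay at background, and without it the median was 0.067, against −0.032 over the 14478 genes above background. The 8 differences ran from −0.12 for Kcnj3 to 0.19 for Hcn2, and over all genes the middle 50% of differences ran from −0.10 to 0.13. Differences between the arrays depended on the level of the gene: dim genes tended to be higher and bright genes lower on the Shox2-/- array, with a trend of 0.097 at the level of Hcn2 and −0.077 at that of Hcn4. With this trend removed by a lowess curve, the signs of all 8 differences were kept, the median was 0.12 again, and 50.6% of all genes lay above 0.

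**Figure D1:**
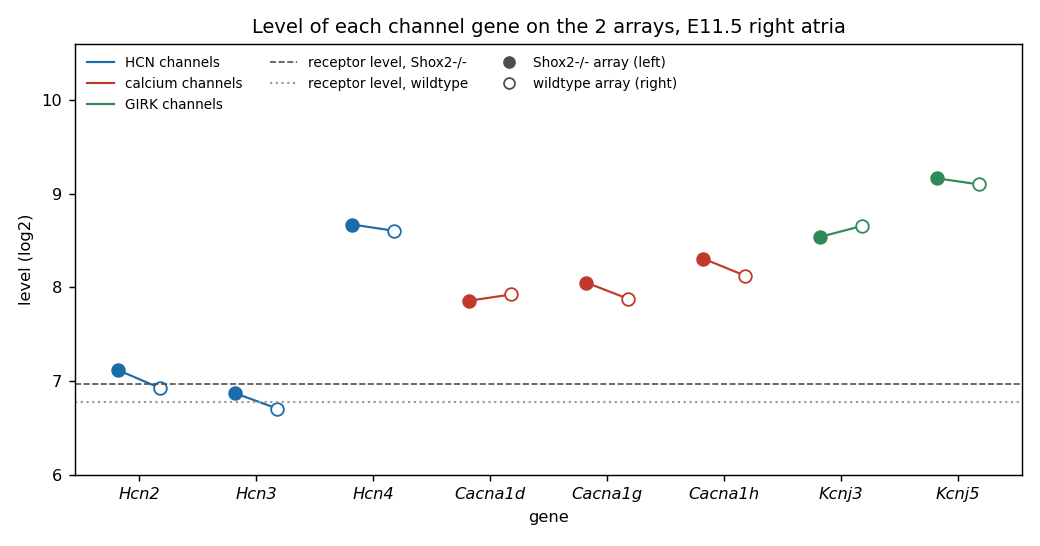
Level of each channel gene (log2, vertical axis) on the Shox2-/- array (filled, left) and the wildtype array (open, right), 1 array each, with no error bars because there are no replicates. The dashed and dotted lines are the levels that 95% of olfactory and vomeronasal receptor genes stay below on each array, 6.97 on the Shox2-/- array and 6.78 on the wildtype array, and Hcn3 lies under both. Each gene has its own probes, so heights can be read between arrays but not between genes.

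Among the HCN genes, Hcn4, the main pacemaker isoform of the sinoatrial node (SAN), was well above background on both arrays. Its level was 8.67 on the Shox2-/- array and 8.61 on the wildtype array, a log2 difference of 0.067, or 105% of the wildtype signal. Of all genes, 70.8% differed between the arrays by at least as much in either direction. The trend at its level was −0.077, so that its difference with the trend removed was 0.14, and 30.2% of all genes were then as far from 0 or farther.

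The remaining HCN genes gave signals near background, which was read from 1291 olfactory and vomeronasal receptor genes, a group with little known use in heart tissue. Hcn2, which like Hcn4 responds strongly to cyclic AMP, had a level of 7.12 on the Shox2-/- array and 6.92 on the wildtype array. Both values lay 0.15 above the receptor level of their array. Its log2 difference of 0.19 was the farthest from 0 among the 8 genes, and it was 0.096 with the trend removed. Hcn3, an isoform with a weak response to cyclic AMP, had a level of 6.87 on the Shox2-/- array and 6.71 on the wildtype array. It lay below the receptor level on both, and its log2 difference was 0.16, or 0.054 with the trend removed. The receptor genes themselves had a median log2 difference of 0.12, and 83.7% of them were higher on the Shox2-/- array, so that values of this size were common among dim genes.

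Both T-type calcium channel genes among the 8 were higher on the Shox2-/- array, by nearly the same amount. Cacna1g had a level of 8.05 on the Shox2-/- array and 7.88 on the wildtype array, a log2 difference of 0.17, or 113% of the wildtype signal. For Cacna1h the level was 8.31 on the Shox2-/- array and 8.12 on the wildtype array, a log2 difference of 0.18, or 114%. All 4 values lay at least 1.08 above the receptor level of their array. These differences were at percentiles 84.5 and 86.3 of all genes, in the same order. They grew to 0.21 and 0.24 with the trend removed, at percentiles 94.4 and 96.1, which made them the most raised of the 8 genes on that scale. On that scale 14.3% of all genes were as far from 0 as Cacna1g or farther, and 10.5% as far as Cacna1h.

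Cacna1d, the L-type gene of the pacemaker, did not share this direction. Its level was 7.86 on the Shox2-/- array and 7.93 on the wildtype array, a log2 difference of −0.066, or 95.5% of the wildtype signal. With the trend removed the difference was −0.034, and 79.8% of all genes were as far from 0 or farther. The log2 difference of Cacna1d was 0.24 below that of Cacna1g and 0.25 below that of Cacna1h, and these gaps were 0.25 and 0.27 with the trend removed. Whether they exceed the spread between pools is not known, because each genotype was measured once.

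Kcnj3 and Kcnj5, whose products assemble into the acetylcholine-gated potassium channel of the atrium, were both well above background and pointed in opposite directions. Kcnj3 had a level of 8.54 on the Shox2-/- array and 8.66 on the wildtype array, a log2 difference of −0.12, or 92.1% of the wildtype signal. For comparison, 49.5% of all genes were as far from 0 or farther. For Kcnj5 the level was 9.17 on the Shox2-/- array and 9.10 on the wildtype array, a log2 difference of 0.065, or 105%. With the trend removed, Kcnj3 stood at −0.043 and Kcnj5 at 0.15. The log2 difference of Kcnj3 was 0.18 below that of Kcnj5, and 0.19 below it with the trend removed.

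**Figure D2:**
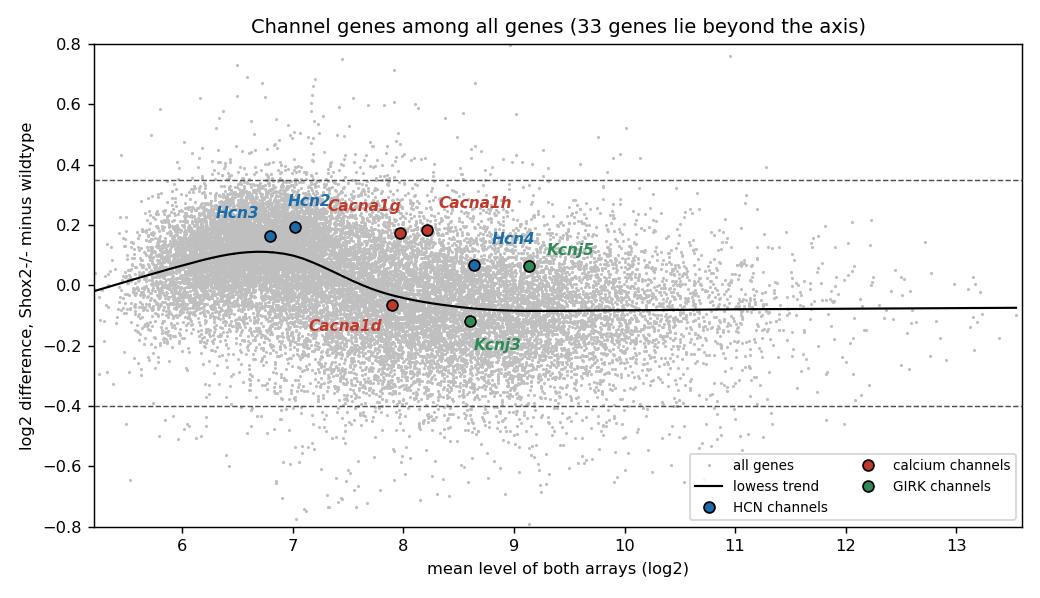
Log2 difference (Shox2-/- minus wildtype, vertical axis) against the mean level of both arrays (log2, horizontal axis) for all genes (grey) and the 8 channel genes (coloured by family); the line is the lowess trend and the dashed lines are the size thresholds. All 8 channel genes lie between the thresholds, with Hcn2 and Hcn3 over the hump of the trend at low levels and Cacna1g and Cacna1h above the trend.

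**Figure D3:**
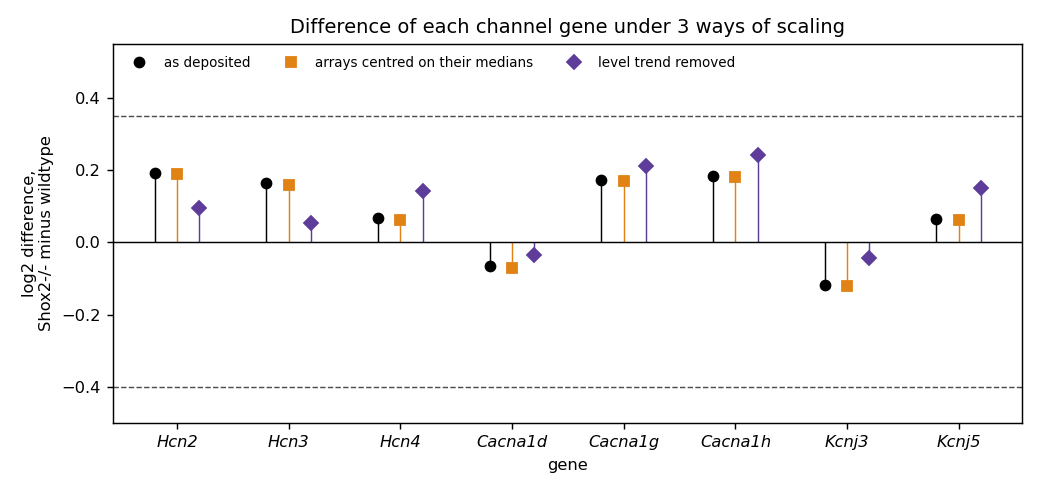
Log2 difference (Shox2-/- minus wildtype) of each channel gene as deposited, after centring each array on its median, and after removal of the level trend; dashed lines are the size thresholds. Every gene keeps its sign under the 3 scalings, and without the trend Hcn2 stands at 0.096 and Cacna1h at 0.24.

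Promoter windows from RefSeq (GRCm38.p6) were found for 5 of the 8 genes, each covering 250 bases before and 50 bases after a transcription start. The windows were searched on both strands for TAAT, the core letters that many homeodomain proteins recognize, because the factor removed in the Shox2-/- embryos is a homeodomain protein, and for AATT, which reads the same on both strands and overlaps TAAT in the string TAATT. In 32851 windows of this length, TAAT occurred in 58% and AATT in 50.4%. Windows are printed for Hcn4 as the main SAN isoform, for both GIRK partners, which differed in direction, and for the upstream start of Cacna1d, the only one of the 6 windows of these 5 genes with TAAT. Capitals mark TAAT or its complement ATTA, and AATT, and each sequence runs 5′ to 3′ on the strand of the gene. They lie at chr9:58822699-58822998 on the plus strand for Hcn4, chr2:55435720-55436019 on the plus strand for Kcnj3, chr9:32344295-32344594 on the minus strand for Kcnj5 and chr14:30491107-30491406 on the minus strand for Cacna1d.
Hcn4: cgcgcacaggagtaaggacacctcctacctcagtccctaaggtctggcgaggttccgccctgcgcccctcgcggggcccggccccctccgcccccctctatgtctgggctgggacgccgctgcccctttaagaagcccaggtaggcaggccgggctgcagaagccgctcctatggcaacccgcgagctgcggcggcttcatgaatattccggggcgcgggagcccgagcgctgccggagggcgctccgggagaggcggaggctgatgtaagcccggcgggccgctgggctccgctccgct
Kcnj3: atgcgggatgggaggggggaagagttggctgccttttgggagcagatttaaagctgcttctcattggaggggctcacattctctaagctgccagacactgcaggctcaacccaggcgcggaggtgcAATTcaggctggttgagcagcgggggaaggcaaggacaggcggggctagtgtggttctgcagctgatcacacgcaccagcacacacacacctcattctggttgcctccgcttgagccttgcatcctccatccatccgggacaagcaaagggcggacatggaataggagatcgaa
Kcnj5: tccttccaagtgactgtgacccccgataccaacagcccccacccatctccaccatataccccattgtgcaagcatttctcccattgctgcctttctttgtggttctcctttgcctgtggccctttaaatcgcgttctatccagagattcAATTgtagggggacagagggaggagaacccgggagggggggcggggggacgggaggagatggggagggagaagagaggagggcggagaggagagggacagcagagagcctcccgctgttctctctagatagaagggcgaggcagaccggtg
Cacna1d: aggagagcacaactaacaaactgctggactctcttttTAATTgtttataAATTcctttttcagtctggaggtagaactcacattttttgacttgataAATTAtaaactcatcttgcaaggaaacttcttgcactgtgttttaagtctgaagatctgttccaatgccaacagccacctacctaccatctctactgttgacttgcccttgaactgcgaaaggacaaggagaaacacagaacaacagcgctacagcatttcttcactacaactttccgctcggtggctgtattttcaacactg
Neither string was present in the window of Hcn4, or in those of Hcn2 and the downstream start of Cacna1d, which are not printed. Kcnj3 and Kcnj5 each held AATT at 1 place, beginning 124 bases and 101 bases before the start. In the upstream window of Cacna1d, TAAT or its complement occurred at 2 places, beginning 213 and 152 bases before the start, and AATT at 3 places, of which 2 overlapped these. Bases G and C made up 71.7% of the window of Hcn4, 57.7% of that of Kcnj3, 58.3% of that of Kcnj5 and 40.3% of the upstream window of Cacna1d, against 87.3% of its downstream window and a median of 52.7% over all windows. A match is a string of letters, and no binding was measured on these arrays.

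Pore genes of the same 3 channel classes outside the 8 were measured for 9 of 10 listed genes. None of the 9 was past a threshold, and 8 were higher on the Shox2-/- array, and the median log2 difference was 0.18, against 0.075 once the trend had been taken out. The 3 farthest from 0 were the neuronal calcium channel genes Cacna1i (0.22), Cacna1e (0.21) and Cacna1a (0.20), and their levels of 6.97, 7.06 and 7.22 on the Shox2-/- array were close to the receptor level, that of Cacna1i below it. Cacna1c, the main L-type channel of working heart muscle, was chosen after its value was seen: it had a level of 8.18 on the Shox2-/- array and 8.19 on the wildtype array.

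Auxiliary subunits set how many calcium channels reach the membrane and how they gate. Of 18 measured genes of calcium channel subunits and calmodulins, none was past a threshold and 13 were higher on the Shox2-/- array, with a median of 0.072. The gamma subunit genes Cacng1 (0.27) and Cacng4 (0.25) were farthest from 0, followed by Cabp1 (0.22), which encodes a calmodulin-like protein and lay below the receptor level on both arrays. Among 10 measured genes of HCN partners, none was past a threshold and the median was 0.021. Pex5l, which encodes a protein that controls HCN transport to the membrane in neurons, had a log2 difference of 0.29, from levels of 7.03 on the Shox2-/- array and 6.74 on the wildtype array. Its wildtype value lay below the receptor level of that array, and the difference was 0.19 with the trend removed. The caveolin gene Cav1 was at −0.12 and the filamin gene Flna at 0.12.

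In the vagal input that opens GIRK channels, 2 of 22 measured genes were past a threshold, 1 in each direction. Chrm2 encodes the muscarinic receptor through which acetylcholine acts on the heart. Its level was 7.43 on the Shox2-/- array and 7.84 on the wildtype array, a log2 difference of −0.42 both as deposited and with the trend removed. Kctd12, whose product binds G protein beta-gamma subunits and is known from neurons to shorten GIRK currents, had a level of 9.23 on the Shox2-/- array and 8.80 on the wildtype array. Its log2 difference was 0.43, or 0.52 with the trend removed. The median of the 22 genes was −0.051, with 8 of them higher on the Shox2-/- array, and 0.018 with the trend removed. Kcnj3 and Kcnj5 lay nearer to 0 than Chrm2, but Chrm2 was named because it passed a threshold, so this comparison says nothing about the channel genes.

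None of 23 measured genes of the adrenergic and cyclic AMP input, which shifts HCN opening and calcium current, was past a threshold, and the median was 0.017. The phosphodiesterase genes Pde3b (−0.22) and Pde2a (−0.18) and the adenylyl cyclase gene Adcy8 (0.22) were farthest from 0, and Adcy8 lay below the receptor level on both arrays. Of 13 other inward rectifier genes, including their sulfonylurea receptor subunits, 12 were higher on the Shox2-/- array and none was past a threshold, and the median was 0.11, against 0.079 once the trend had been taken out. Abcc9, a subunit of ATP-sensitive potassium channels, was at 0.30 as deposited and at 0.38 with the trend removed, which is past the upper threshold on that scale. Kcnj13 (0.26) and Kcnj16 (0.25) followed and lay below the receptor level on both arrays.

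Calcium release from the sarcoplasmic reticulum acts together with these channels in pacemaker cells. None of 11 measured genes of this kind was past a threshold, with a median of −0.0076 as deposited and 0.077 with the trend removed. Trdn (−0.29) and Casq2 (−0.28), which encode triadin and the calcium store protein calsequestrin, were lowest. Jph2 (0.22), which holds the reticulum close to the cell membrane, was highest. Among 14 sodium, potassium and gap junction channel genes of the atrium, the connexin gene Gjd3 (0.29), the sodium channel subunit gene Scn4b (0.23) and the connexin gene Gja1 (0.23) were farthest from 0, none past a threshold, and Scn4b lay below the receptor level on both arrays.

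**Figure D4:**
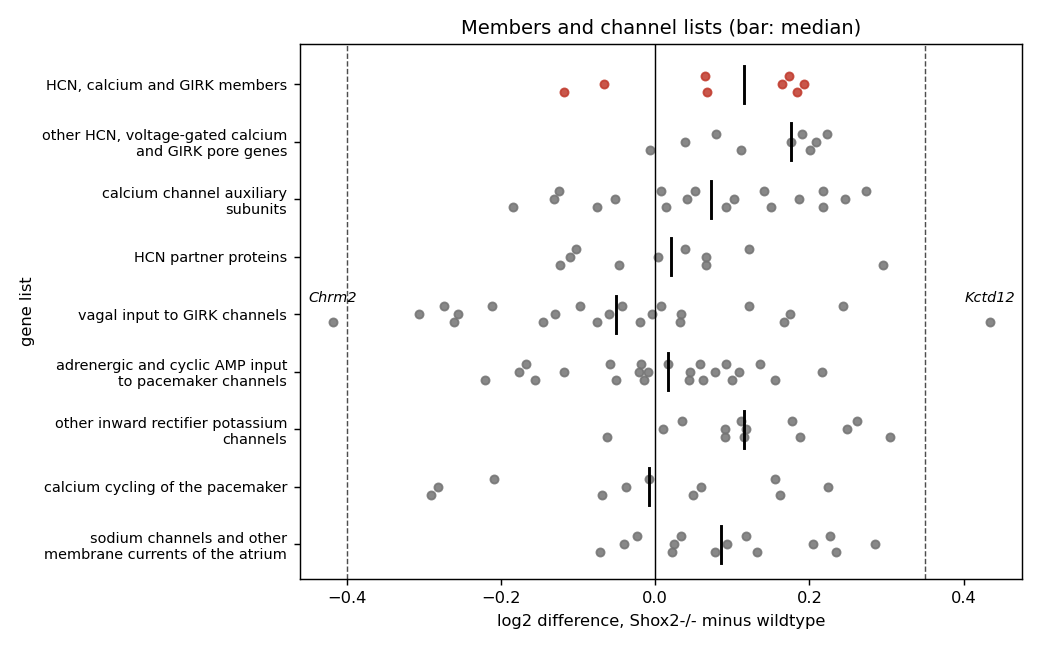
Log2 difference (Shox2-/- minus wildtype, horizontal axis) of the 8 channel genes (red) and of the genes in 8 lists of related channels and inputs (grey), 1 point per gene, with the median as a bar and the size thresholds as dashed lines. Chrm2 at −0.42 and Kctd12 at 0.43 are the points past a threshold.

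Marker genes of several cell types differed in level between the 2 pools, and fewer cells of a type cannot be told apart from less RNA per cell in such samples. The targeted gene Shox2 had a level of 7.48 on the Shox2-/- array and 8.43 on the wildtype array, and Isl1, another SAN transcription factor gene, 7.53 on the Shox2-/- array and 7.95 on the wildtype array. Of 10 measured genes of SAN transcription factors and the ligand Bmp4, 7 were higher on the Shox2-/- array. The median log2 difference of the 10 was 0.052. Higher were Nkx2-5 (0.27), also counted among the heart muscle markers, Tbx18 (0.17) and Tbx3 (0.15), examples chosen after their values were seen. Among 8 SAN markers outside the channel genes, which include Tbx18 and Tbx3, 5 were lower, and Shox2 and Isl1 were past the lower threshold. The median of these 8 was −0.043, and Smoc2 stood at −0.38. All 10 heart muscle markers and all 8 atrial markers lay above the receptor level on both arrays. The heart muscle markers were all higher on the Shox2-/- array, with a median log2 difference of 0.17 (0.25 without the trend) and Ttn (0.43) past the threshold. Of the 8 atrial markers 7 were higher, with a median of 0.079 and Nppa at −0.12. Of 5 ventricular markers 4 were higher, with a median of 0.050 and Myl2 (−0.70) past the lower threshold. The 8 channel genes had a median of 0.12 beside these lists. Summed on the linear scale, the heart muscle markers reached 26872 on the Shox2-/- array and 25377 on the wildtype array. Of 11 neuron and neural crest markers, cells in which several of these channels are also used, 2 had differences of at least 0.35. These were Tfap2a (0.47) and Tfap2b (0.63), and Dbh (−0.47) was under −0.4. The median of the 11 was 0.015, with 8 higher on the Shox2-/- array. With the trend removed the median was −0.031, and 3 lay above 0. The 11 markers summed to 1669 on the Shox2-/- array and 1592 on the wildtype array. Fetal liver markers summed to 2840 on the Shox2-/- array and 6254 on the wildtype array, and 8 of 10 were past the lower threshold. Red blood cell markers summed to 30817 on the Shox2-/- array and 38076 on the wildtype array, with 6 of 10 past the lower threshold, and 5 of 10 foregut and lung markers were past it as well. The part of these cell types in the values of the channel genes was not tested.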

How the data were processed

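RNA of E11.5 right atria was hybridized by the authors to GeneChip Mouse Gene 1.0 ST arrays, 1 per genotype. In JMP Genomics 4.0 the authors took logarithms of perfect-match probe values, applied quantile normalization and fitted a log-linear model of probe and genotype, and a custom CDF of version 14 defined 1 probe set per Entrez gene. The deposited values span 5.09 to 13.6 and were taken as log2. Neither background correction nor genome build was given in the sources used here. Probe cross-hybridization between related channel genes could not be examined, since probe values were not used here.

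Of 21225 genes, 20239 had a symbol in the platform annotation, and RefSeq (GRCm38.p6) gave the same symbol for each. Differences are Shox2-/- minus wildtype. The size thresholds are those of the study, whose P from probe values was not computed. Quantile normalization forces both arrays to nearly the same distribution, so that only relative differences are seen. The lowess trend (fraction 0.3, 3 iterations) was tested on simulated data. The number of arrays limits the precision. The members and lists were chosen with earlier results of these data known. Named are the 8 genes, in each channel list those past a threshold or else the 3 farthest from 0, Shox2 and Isl1, and examples of markers. Python 3.11.15, numpy 2.4.6, pandas 2.3.3, statsmodels 0.14.6 and matplotlib 3.10.9 were used.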

Additional observations from a re-analysis of the deposited data

How the results depend on the processing

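No paired analysis was possible because each genotype was measured on 1 array, which also leaves no replicate to omit. In place of a replicate spread, the SD of the log2 differences of 1291 receptor genes, 0.13, was taken as the limit for calling a value moved. Within it stayed the differences of all 8 channel genes under centring and under removal of the trend, and their median of 0.12 with centring (0.11), without the trend (0.12) and as a mean (0.083). For the 8 single differences, and for their median with centring and without the trend, this was fixed in advance and shows no stability. The array medians were 7.499 (Shox2-/-) and 7.495 (wildtype), and the trend at the levels of the 8 genes ran from −0.085 to 0.11. Within the limit, Hcn3 fell from 0.16 to 0.054 and Hcn4 rose from 0.067 to 0.14 with the trend removed. Without Hcn3, the 1 gene not above the receptor level, the median was 0.067, against −0.032 over all genes above that level. The count of 0 channel genes past a threshold was the same at 0.2, 0.4 and 1 in both directions as deposited. The counts at 0.4 and 1 could not differ, because the size thresholds of the study are no wider than these. At the size thresholds of the study the count was also 0 with centring and with the trend removed. This count could not differ either, because these shifts were too small to carry any of the 8 past a threshold. With the trend removed, however, Cacna1g (0.21) and Cacna1h (0.24) lay past 0.2. Percentiles among all genes were less stable: 5 of 8 moved by 10 points or more with the trend removed, among them Hcn4 (60.7 as deposited, 86.1 then) and Hcn3 (82.8 as deposited, 65.7 then). The number of all genes past the upper threshold was 240 of 21225, against 158 of the 14478 genes above the receptor level. Among genes above the median level it was 89. A smaller set cannot hold more such genes, so the lower counts alone do not show instability. Signals near the receptor level limit what Hcn2 and Hcn3 can show.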
